A study of Mus musculus with 8 samples.

Results

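The genes described here are markers and regulators of pluripotency, measured in cultures on Day 4 of differentiation from ES cells to neural progenitors. No array of undifferentiated ES cells was among those read, so a change from the ES cell state was not measured. The list held 36 gene symbols, from factors of naive and primed pluripotent cells to regulators shared by both. They were chosen by name, with earlier results of these data known. A transcript cluster carrying that symbol alone was found for 35 of them. They are 35 of 19938 distinct symbols on the array and were read on all 8 arrays. The remaining symbol, *Rex2*, lay only on transcript clusters shared with other zinc finger genes, under 13 and 6 symbols, and those signals were not assigned to it.

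Mouse R1 ES cells, an established line, were differentiated as monolayers in N2B27, a medium without serum that lets ES cells turn neural, and RNA was taken on Day 4. Control cells (labelled Conditional, and Sox3 positive by genotype) carried a conditional *Sox3* allele, and *Sox3* null cells carried a GFP reporter in place of the single *Sox3* exon. Each group had 4 cultures, with replicates 1 and 2 in differentiation batch 1 and replicates 3 and 4 in batch 2, and each culture had its own Affymetrix Mouse Gene 1.0 ST array. Both groups are engineered derivatives of R1, and no parental R1 culture was analysed here. *Sox3* and any other difference between these lines therefore enter the same comparison. The labels describe maintenance on gelatine and the methods describe irradiated feeder fibroblasts, so carried-over fibroblast RNA was checked with markers. The 4 cultures of a line are described as biological replicates, drawn from 2 independent experiments.

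Pluripotent cells are held in that state by a network of transcription factors around OCT4, SOX2 and NANOG. Naive ES cells add a layer that includes ESRRB, KLF and TFCP2L1 factors and is sustained by LIF signalling, whereas primed cells of the epiblast lose this layer, keep OCT4 and gain factors such as OTX2 and FGF5. During neural induction the network is shut down, while SOX2, which both states share, is kept on. Some members are not confined to pluripotent cells. *Sall1*, *Mycn*, *Lin28a*, *Lin28b*, *Trim71*, *Jarid2*, *Etv4* and *Etv5* are also active in early neural or other embryonic cells, and the KLF, TET and CD9 genes in many tissues, so their signal at Day 4 is not by itself a sign of residual ES cells.

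The values are log2 signals, with array medians between 7.63 and 7.70 over 23410 named transcript clusters. Differences are *Sox3* null minus control, fitted with limma over all of these with batch as a term, and a gene passed at an adjusted p of 0.05 or less. *Sox3* was lower on every null array (log2 difference -1.31, adjusted p = 3.87e-05), as the labels require. Of 12 neural progenitor markers, 12 lay above the median signal of 7.67, against 2 of 11 mesoderm and endoderm markers and 4 of 12 fibroblast markers. Of the 35 members, 30 lay above that median, from 6.07 for *Prdm14* to 11.99 for *Sall4* as means over all arrays. Probes of different genes are not equally bright, so these signals do not rank the genes by transcript number. The 5 members below the median (*Klf4*, *Tbx3*, *Dppa3*, *Tcl1* and *Prdm14*) are measured closest to background. *Sox3*, whose single exon is replaced in null cells, still had a mean of 8.50 on null arrays. A signal above the median therefore does not by itself show that a gene is active. Members such as *Zfp42* (8.13) and *Esrrb* (7.94) lay above the median but below that *Sox3* mean. Others, such as *Nanog* (10.47), *Pou5f1* (10.64) and *Dppa5a* (11.54), lay above it. Whether cells in the ES cell state remained in the cultures was not tested.

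One member differed between the genotypes and the rest of the list did not pass. *Nanog* fell in *Sox3* null cells, and 34 members did not pass. The share of all transcript clusters that passed was 1.55%, with 0.393% lower and 1.15% higher in null cells, so 1 of 35 is a small count on which to separate the list from other genes. No member that passed also reached a fold change of 1.4, the cut-off used in the study, which 0.431% of all transcript clusters did. The intervals of 33 members excluded a 1.4-fold difference in either direction, and those of *Nanog* and *Zscan10* did not. Counting *Nanog*, 26 of the 35 differences were under 0, against 50.0% of all transcript clusters. Of the 14 with an unadjusted p under 0.05 at their brightest transcript cluster, *Nanog* included, all 14 were lower in null cells. At that p, 5.80% of all transcript clusters were lower and 7.31% higher. The median difference of the members was -0.10 and that of all transcript clusters -0.00011. These members were read on the same 8 arrays and many are controlled together, so the counts describe the list and do not test it.

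**Figure D1:**
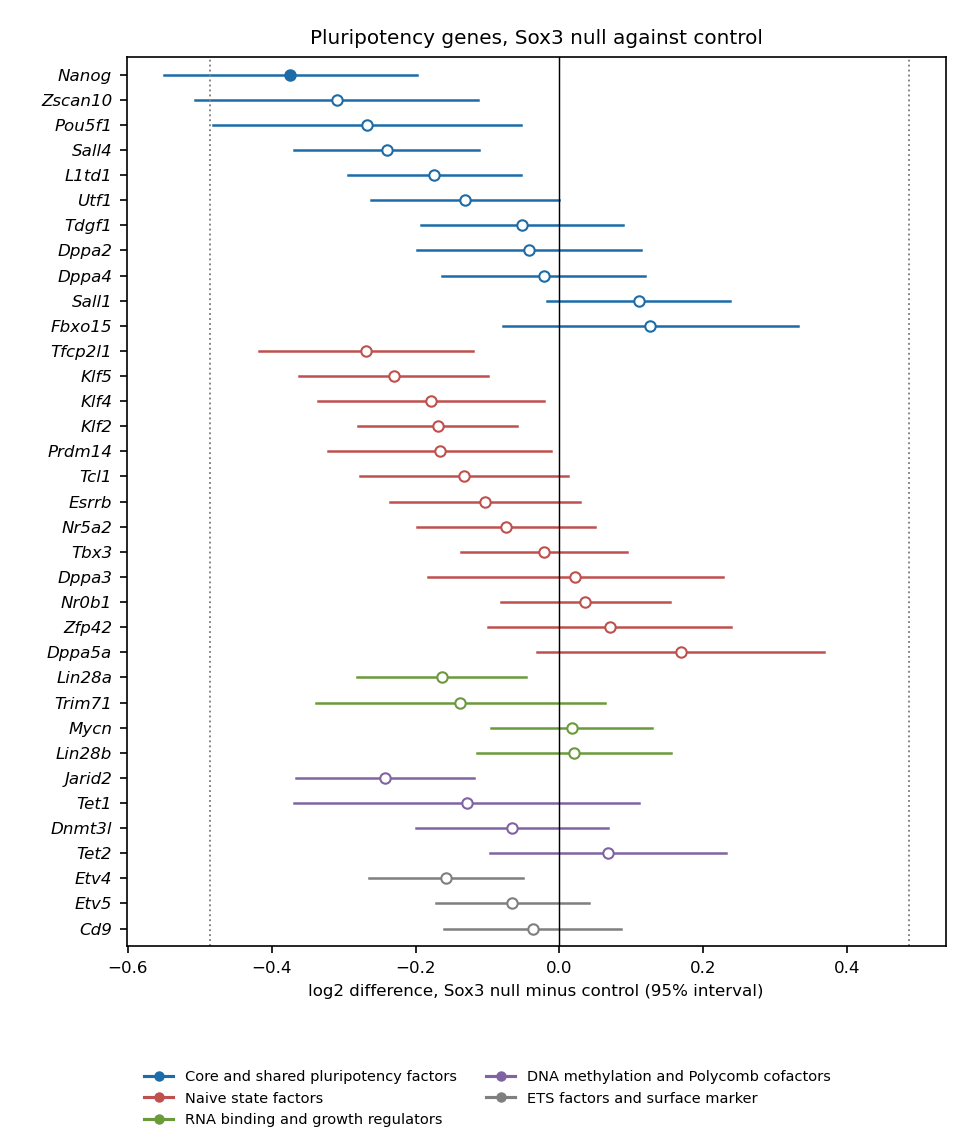
Log2 difference of *Sox3* null minus control (horizontal axis) for the 35 measured pluripotency genes, grouped by role, from 4 arrays of each genotype. Circles are limma estimates, filled where the adjusted p was 0.05 or less, lines are 95% intervals and dotted lines mark a 1.4-fold difference. *Nanog*, at -0.37, is the one filled circle, and 26 of the 35 lie left of 0.

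*Nanog* encodes the homeodomain factor that stabilises the undifferentiated state. The 4 control arrays read 10.70, 10.74, 10.71 and 10.47 in the order of replicates 1 to 4, and the 4 null arrays 10.39, 10.10, 10.26 and 10.37. The groups did not overlap, although control replicate 4 lay close to null replicate 1. The log2 difference was -0.37 (limma, 95% interval -0.55 to -0.20, adjusted p = 0.0464), and it was -0.47 in batch 1 and -0.28 in batch 2. With any 1 of the 8 arrays removed in turn, *Nanog* missed the threshold in 7 cases, with adjusted p up to 0.151 and log2 differences from -0.44 to -0.30, and it still passed when control replicate 4 was the one removed (adjusted p = 0.02). RefSeq lists *Nanog* pseudogenes, and whether their transcripts reach these probes was not tested. In cultures of mixed cells a lower signal can come from fewer cells that express a gene or from less RNA in each, and these cannot be told apart here.

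SOX and POU factors bind neighbouring motifs in regulatory DNA of pluripotent cells, and *Nanog* carries a well-known example at its promoter. RefSeq promoter windows of GRCm38.p6 were given for 25 of the 35 members, and the 250 bases before each start were searched on both strands. The windows of *Nanog* and *Zfp42*, the members that hold the octamer core TTTGCAT, are shown because one belongs to the gene that fell and the other to a naive marker that did not pass. Capitals mark matches to TTTGCAT, to the SOX core ACAATG or to the KLF motif GGGTGTGG, which reads CCACACCC on the other strand, and at *Nanog* also the base between adjoining matches. The *Nanog* window is chr6:122707315-122707564 on the plus strand, and the *Zfp42* window is chr8:43307010-43307259 on the minus strand. Both are written 5′ to 3′ in the direction of the gene.
*Nanog*: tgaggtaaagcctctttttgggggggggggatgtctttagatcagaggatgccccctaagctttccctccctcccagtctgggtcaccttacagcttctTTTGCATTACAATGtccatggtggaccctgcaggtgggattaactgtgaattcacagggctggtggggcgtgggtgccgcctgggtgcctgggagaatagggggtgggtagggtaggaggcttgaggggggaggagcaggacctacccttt
*Zfp42*: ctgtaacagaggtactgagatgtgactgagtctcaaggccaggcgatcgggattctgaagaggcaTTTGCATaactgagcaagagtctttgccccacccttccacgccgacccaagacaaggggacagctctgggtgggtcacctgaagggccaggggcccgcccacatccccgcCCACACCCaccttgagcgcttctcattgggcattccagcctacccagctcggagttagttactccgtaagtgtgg
In the *Nanog* window the octamer core, from -151 to -145 before the start, is followed after 1 base by the SOX core, from -143 to -138. This exact arrangement was found in 2 of 32851 windows, both of them listed for *Nanog*. It was searched with the *Nanog* element in mind, so its rarity is no finding. Taken alone, the octamer core was in 4.12% of all windows and the SOX core in 10.7%, and among the members *Lin28a*, *Nanog* and *Pou5f1* had a SOX core. The KLF motif, in 3.20% of windows, was found at *Zfp42*, and the ESRRB motif TCAAGGTCA, in 0.387% of windows, at no member. A match describes the letters of the window and does not show that a factor binds there.

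Among the 11 core and shared factors, 1 fell, none rose and 10 did not pass, with a median difference of -0.13. *Pou5f1*, which encodes OCT4, read 10.81, 10.78, 10.89 and 10.62 on the control arrays and 10.42, 10.22, 10.79 and 10.60 on the null arrays. In batch 1 both null arrays lay below both controls, whereas in batch 2 the groups overlapped. The difference was -0.27 (95% interval -0.48 to -0.053, adjusted p = 0.259), with -0.47 in batch 1 and -0.062 in batch 2. *Pou5f1* has several transcribed pseudogenes in RefSeq, and their part in this signal was not tested.

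*Sall4*, a zinc finger partner of OCT4, had 12.19, 12.19, 11.96 and 12.10 on control arrays and 11.83, 11.95, 11.78 and 11.91 on null arrays. The null arrays all lay lower, by a narrow margin, and the difference of -0.24 (95% interval -0.37 to -0.11) missed the threshold (adjusted p = 0.0822). *Zscan10*, a SCAN domain zinc finger factor of ES cells, had -0.31 (95% interval -0.51 to -0.11, adjusted p = 0.145), with -0.47 in batch 1 and -0.14 in batch 2. It passed without *Sox3* null replicate 4 (-0.42, adjusted p = 0.0112), and so did *Jarid2*. *L1td1*, an RNA-binding protein gene derived from a LINE-1 element, had -0.17 (adjusted p = 0.184), and its null arrays, at 7.96 to 8.12, lay below all control arrays, at 8.14 to 8.26. *Utf1*, which encodes a chromatin protein of undifferentiated cells, had -0.13 (adjusted p = 0.377).

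The other 5 genes of this group lay closer to 0 or above it. *Tdgf1*, the Nodal co-receptor Cripto, had -0.053, and *Dppa2* and *Dppa4*, which encode a pair of SAP domain proteins, had -0.042 and -0.022. A further transcript cluster of *Dppa4* had 0.31 (adjusted p = 0.238) and that of *Dppa2* 0.095, so the sign of both depends on the probes. At that *Dppa4* cluster all null arrays lay above all control arrays (limma, unadjusted p = 0.0157). The counts of members use the brightest cluster and leave it out. Which locus each of these clusters lies at was not known here, nor was it for *Dppa3* and *Etv5*. The brightest cluster is therefore not known to be the better reading of these genes. *Fbxo15*, an F-box gene and OCT4 target, had 0.13 (adjusted p = 0.637), and *Sall1*, a zinc finger gene, 0.11 (adjusted p = 0.459). For *Sall1* the null arrays lay above the controls within each batch, the one member of which this was true at its brightest transcript cluster.

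**Figure D2:**
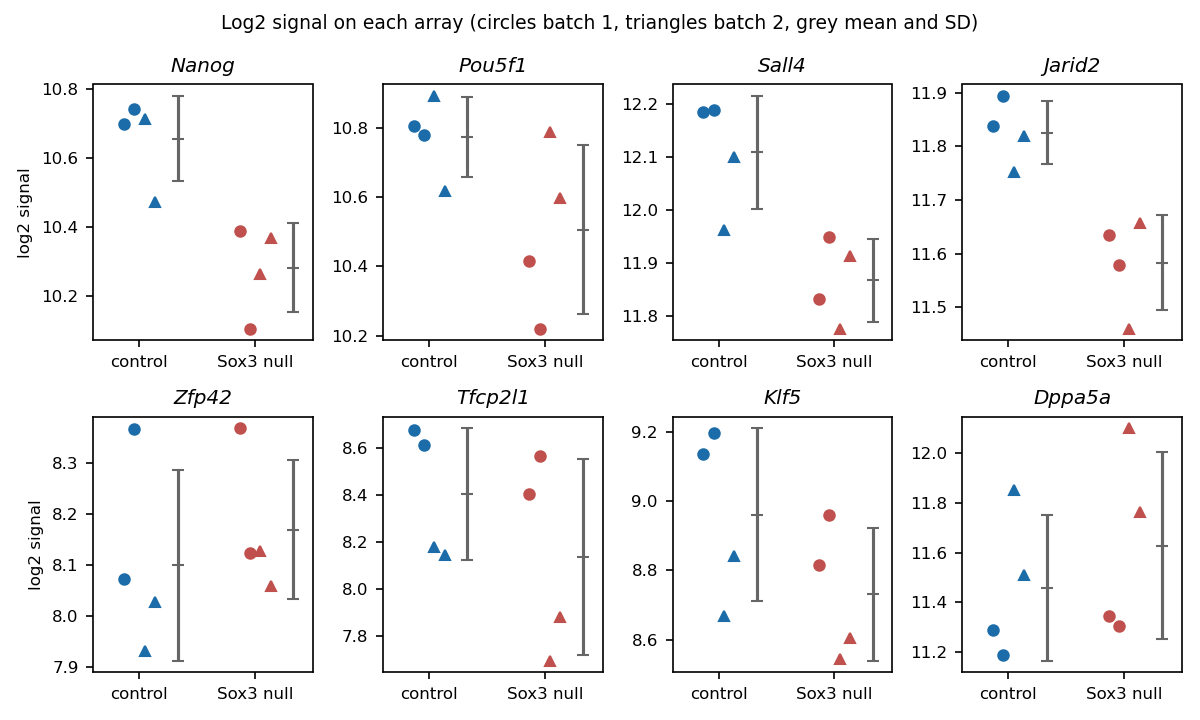
Log2 signal (vertical axes, each with its own range that does not start at 0) of 8 members on each array. Blue is control and red *Sox3* null, circles are batch 1 and triangles batch 2, and grey marks give mean and SD of 4 arrays. *Nanog*, *Sall4* and *Jarid2* separate by genotype, whereas *Tfcp2l1* and *Dppa5a* separate by batch.

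None of the 13 measured naive state factors passed between genotypes, and their median difference was -0.10. The lowest was *Tfcp2l1*, a CP2 family factor downstream of LIF. It read 8.68, 8.62, 8.18 and 8.14 on control arrays and 8.41, 8.57, 7.69 and 7.88 on null arrays. Within each batch both null arrays were lower, and the step between batches was larger than that between genotypes. The genotype difference was -0.27 (95% interval -0.42 to -0.12, adjusted p = 0.0932).

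The 3 Krüppel-like factors lay on the same side. *Klf5* had -0.23 (adjusted p = 0.102), *Klf4* -0.18 (adjusted p = 0.311) and *Klf2* -0.17 (adjusted p = 0.158). For *Klf2* and *Klf5*, but not *Klf4*, both null arrays lay below both control arrays within each batch. *Prdm14*, a PR domain factor of naive and germ cells and the dimmest member, had -0.17 (adjusted p = 0.338), and *Tcl1*, an AKT co-activator gene, -0.13 (adjusted p = 0.426). The nuclear receptor genes *Esrrb* and *Nr5a2* had -0.10 and -0.074.

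The other 5 naive state factors lay nearer to 0 or above it. *Zfp42*, which encodes REX1, read 8.07, 8.37, 7.93 and 8.03 on control arrays and 8.37, 8.12, 8.13 and 8.06 on null arrays. The groups overlapped fully, and the difference was 0.070 (95% interval -0.099 to 0.24, adjusted p = 0.78). *Dppa5a*, an RNA-binding KH domain gene, was the highest member at 0.17 (95% interval -0.032 to 0.37, adjusted p = 0.479). *Dppa3*, which encodes Stella, had 0.022, *Nr0b1*, which encodes the orphan receptor DAX1, 0.036, and *Tbx3*, a T-box factor gene, -0.021. A further, dimmer transcript cluster of *Dppa3* had -0.090 (adjusted p = 0.506), so its sign depends on the probes too. The interval of *Zfp42* excludes a difference as large as the estimate for *Nanog*, although the mean signal of *Zfp42*, 8.13, lay below that of *Sox3* on null arrays, 8.50.

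The 4 RNA-binding and growth regulators did not pass either. *Lin28a*, which blocks maturation of let-7 microRNAs, had -0.16 (95% interval -0.28 to -0.046, adjusted p = 0.203), while its paralogue *Lin28b* had 0.020 (95% interval -0.12 to 0.15). The null arrays of *Lin28a* lay below the controls within each batch. *Trim71*, a let-7 target and translational repressor, had -0.14, and *Mycn*, the MYC family gene of progenitors, 0.017 (95% interval -0.095 to 0.13).

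Of the 4 cofactors of DNA methylation and Polycomb, *Jarid2* came nearest to the threshold. It encodes a DNA-binding subunit of Polycomb repressive complex PRC2. Control arrays read 11.84, 11.89, 11.75 and 11.82, and null arrays 11.63, 11.58, 11.46 and 11.66. The groups did not overlap, and the difference was -0.24 (95% interval -0.37 to -0.12, adjusted p = 0.067), with -0.26 and -0.23 in batches 1 and 2. *Tet1*, a 5-methylcytosine dioxygenase gene, had -0.13, -0.13 and -0.22 at its 3 transcript clusters (adjusted p = 0.479 or more), and *Tet2* had 0.067. *Dnmt3l*, a cofactor of de novo DNA methylation, had -0.066.

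The ETS factors *Etv4* and *Etv5* respond to FGF signalling. *Etv4* had -0.16 (adjusted p = 0.179), with null arrays at 7.58 to 7.66 and control arrays at 7.72 to 7.81, so that the groups did not overlap at a small difference. *Etv5* had -0.065, with -0.016 at its dimmer transcript cluster, and *Cd9*, a tetraspanin of the cell surface, had -0.037. At the brightest transcript cluster of each gene, the null arrays lay below all control arrays for 5 members (*Nanog*, *Sall4*, *L1td1*, *Jarid2* and *Etv4*) and above them for none. Of all transcript clusters, 2.19% were so separated downwards and 2.41% upwards. The dimmer cluster of *Dppa4* was separated upwards. Within each batch, 9 members had both null arrays below both controls (5.04% of all transcript clusters) and 1 had them above (7.01%).

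**Figure D3:**
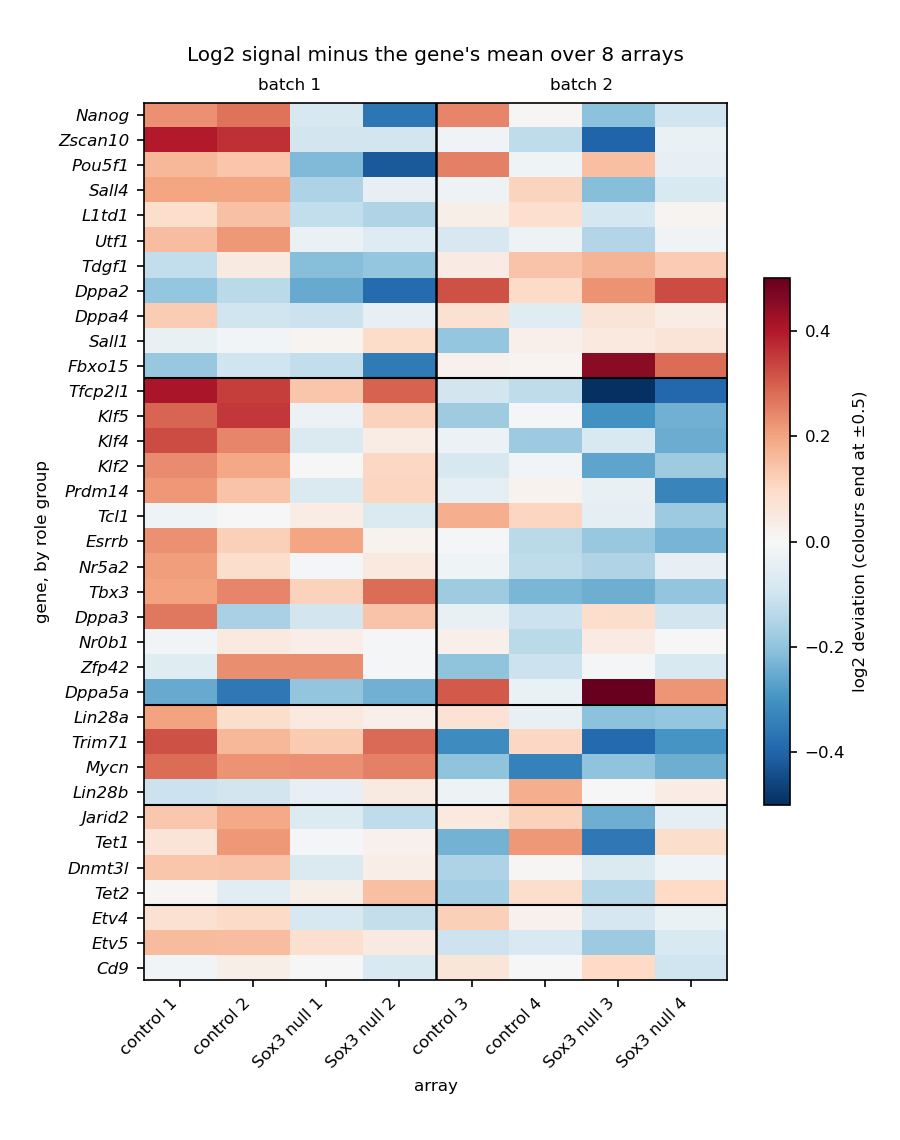
Log2 signal of the 35 members on each of the 8 arrays, as the deviation from the gene's own mean over all arrays (red higher, blue lower, colours ending at ±0.5). Columns are arrays, batch 1 left of the thick line, and rows are genes by role group. Control arrays of batch 1 are mostly red, with a median deviation of 0.15 and 0.14.

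The 2 control arrays of batch 1 stood highest over the list as a whole. Their median deviation from each gene's mean was 0.15 and 0.14, and the null arrays of the same batch had -0.034 and 0.017. In batch 2 the controls had -0.024 and -0.0046 and the null arrays -0.087 and -0.046, and over all named transcript clusters the 8 arrays lay between -0.028 and 0.023. The median residual SD of the members was 0.0875, against 0.0869 for all named transcript clusters. Between control replicates 1 and 2 the median absolute difference was 0.060 for members and 0.077 for all transcript clusters. Members differed more in the other pairs, by 0.106 against 0.091 for null replicates 1 and 2. For control replicates 3 and 4 it was 0.111 against 0.092, and for null replicates 3 and 4 0.1055 against 0.0985. Cultures of the same genotype and batch differed in either direction. Between control replicates 1 and 2, for example, 19 members were higher in replicate 2 and 16 in replicate 1.

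The genotype difference was then compared between the batches, since each holds 2 cultures of either line. In batch 1, 30 of the 35 members were lower in null cells, with a median of -0.13, and in batch 2, 23 were lower, with a median of -0.054. Members below 0 in both batches numbered 22, and those above 0 in both numbered 4, against 30.6% and 30.9% of all transcript clusters. No genotype by batch difference passed in limma, for the members or over all transcript clusters (0.00%). At an unadjusted p under 0.05 there were 3 members, *Fbxo15*, *Pou5f1* and *Tcl1*, and 3.05% of all transcript clusters. *Fbxo15* went from -0.095 in batch 1 to 0.35 in batch 2, whereas *Tcl1* went from -0.0061 to -0.26. A change of the genotype effect between batches was thus not detected with 2 cultures on a side.

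**Figure D4:**
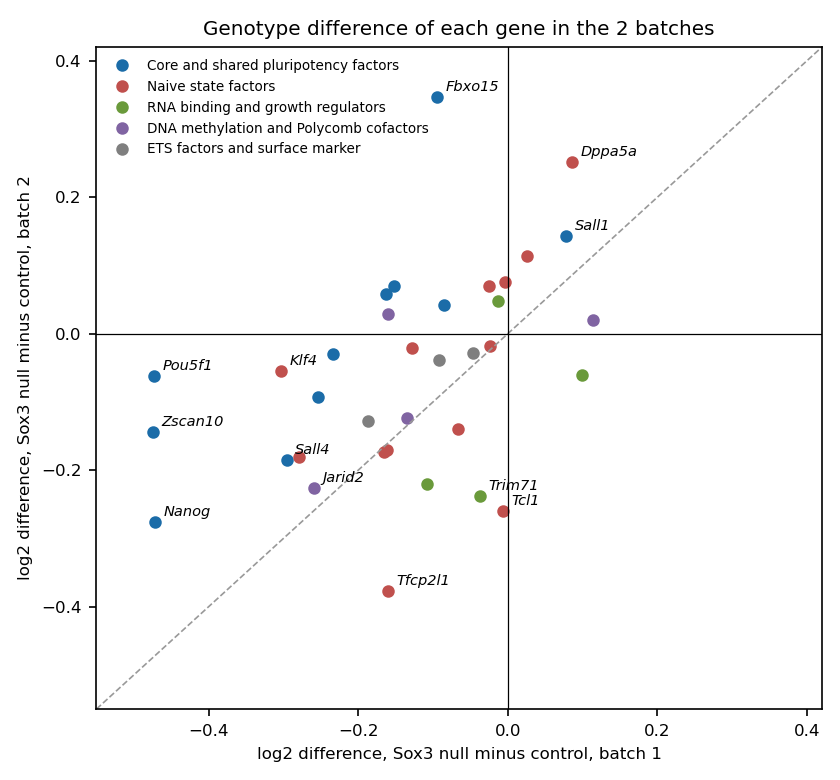
Log2 difference of *Sox3* null minus control in batch 1 (horizontal axis) and in batch 2 (vertical axis) for each of the 35 members, coloured by role group, each axis from 2 against 2 arrays. The dashed line marks equal differences. *Nanog* is low in both (-0.47 and -0.28), while *Pou5f1* (-0.47 and -0.062) and *Zscan10* (-0.47 and -0.14) lie far from 0 mainly in batch 1.

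The batches themselves differed more than the genotypes for most of the list. Between batch 2 and batch 1, with genotype as a term, 15 of the 35 members passed, 11 lower and 4 higher in batch 2, where 20.2% of all transcript clusters passed, 9.35% lower and 10.9% higher. For 23 members the batch difference was larger in size than the genotype difference. The share of all transcript clusters with a larger batch difference was not computed, so this count does not set the list apart. Between genotypes 1.55% of all transcript clusters passed. Naive state factors accounted for 7 of the 15. *Tfcp2l1* was lower by a log2 difference of -0.59 (95% interval -0.74 to -0.44, adjusted p = 2.49e-04), *Tbx3* by -0.42, *Klf5* by -0.36, *Esrrb* by -0.28, *Klf2* by -0.27 and *Klf4* by -0.27. The seventh, *Dppa5a*, was higher in batch 2 by 0.52 (95% interval 0.32 to 0.72, adjusted p = 0.00246). Its arrays read 11.29, 11.19, 11.35 and 11.30 in batch 1 and 11.85, 11.51, 12.10 and 11.76 in batch 2, controls first, with no overlap. Of the 7 naive state factors that passed between the differentiation batches, 6 were thus lower in batch 2 and *Dppa5a* alone was higher.

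The other members higher in batch 2 were *Dppa2* (0.48, adjusted p = 9.84e-04), *Fbxo15* (0.38, adjusted p = 0.0147) and *Tdgf1* (0.24, adjusted p = 0.0209). *Dppa2* was higher at both of its transcript clusters, by 0.77 at the dimmer one. The other members lower in batch 2 were *Mycn* (-0.49, adjusted p = 1.63e-04), *Trim71* (-0.45), *Zscan10* (-0.29), *Etv5* (-0.22) and *Lin28a* (-0.18). The fold threshold of 1.4 was reached by *Tfcp2l1* (1.51), *Dppa5a* (1.44) and *Mycn* (1.41), against 2.49% of all transcript clusters. *Nanog* (-0.029, 95% interval -0.20 to 0.15) and *Pou5f1* (0.17, adjusted p = 0.276) did not pass. All batch 2 arrays lay below all batch 1 arrays for 8 members and above them for 3, where 9.34% and 11.7% of all transcript clusters did so.

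**Figure D5:**
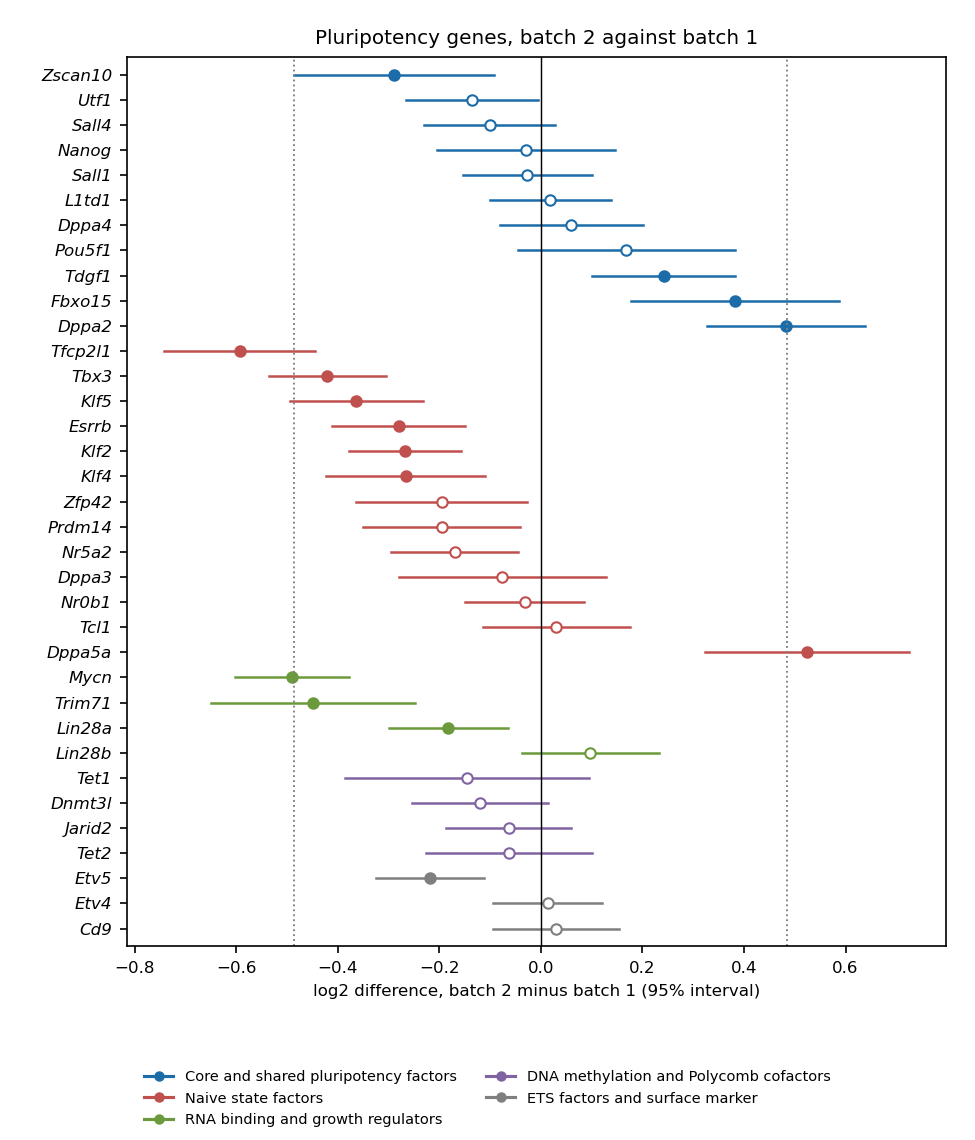
Log2 difference of batch 2 minus batch 1 (horizontal axis) for the 35 members by role group, from 4 arrays of each batch. Circles are limma estimates with genotype as a term, filled where the adjusted p was 0.05 or less, lines are 95% intervals and dotted lines mark 1.4-fold. Of the 15 filled circles, 11 lie left of 0, from *Tfcp2l1* at -0.59, and 4 right of it, up to *Dppa5a* at 0.52.

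Other genes of the pluripotency network were read from lists outside the 36 members, also chosen with earlier results of these data known. Of 23 naive state and LIF pathway genes 19 were measured, of which 1 rose, 1 fell and 17 did not pass between genotypes (1.15% and 0.393% of all transcript clusters rose and fell), with a median difference of -0.046. *Lifr*, the LIF receptor gene, rose by 0.45 (standard error 0.07, adjusted p = 0.00715), with 0.42 in batch 1 and 0.49 in batch 2. *Eras*, the RAS family gene of ES cells, fell by 0.41 (standard error 0.09, adjusted p = 0.0469). *Gbx2*, a homeobox gene of naive cells and of the anterior hindbrain, had -0.23 (adjusted p = 0.0719), and *Sox2*, also on the neural list, had 0.21 (adjusted p = 0.0825). *Sox2*, the partner of OCT4 that neural progenitors keep, thus had a difference of opposite sign to *Pou5f1* and *Nanog*.

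Of 16 genes of the primed state, 3 fell, none rose and 13 did not pass, with a median difference of -0.14, where 0.393% of all transcript clusters fell and 1.15% rose. Of the 16, 15 lay below 0, against 50.0% of all transcript clusters. The list was chosen with earlier results of these data known, so these counts describe it and do not test it. It shares genes with the other lists. The 1 gene above 0 is also counted among the neural progenitor markers, and another gene is also on the naive list. *Fst*, which encodes follistatin, fell by 0.48 (standard error 0.07, adjusted p = 0.00517). *Otx2*, a homeobox factor of the epiblast and of the forebrain, fell by 0.47 (standard error 0.08, adjusted p = 0.0113), and *Dnmt3b*, a de novo DNA methyltransferase gene, by 0.33 (standard error 0.06, adjusted p = 0.0154). *Pou3f1*, a POU factor of the epiblast and of neural cells, had -0.23 (adjusted p = 0.0557). Several of these genes have roles in the neural tube too. The median of this list was -0.25 in batch 1 and -0.032 in batch 2, and 7 of its 16 genes, among them *Otx2*, *Dnmt3b* and *Fst*, had an unadjusted p under 0.05 for genotype by batch, against 3.05% of all transcript clusters, and none of them passed after adjustment. *Fst* differed more in batch 2 (-0.63) than in batch 1 (-0.34), the reverse of *Otx2* and *Dnmt3b*.

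Markers of other cell types were read on the same arrays. Of the 12 neural progenitor markers, 3 rose (*Sox9*, *Nes* and *Zic1*), 1 fell (*Sox3*, the targeted gene) and 8 did not pass between genotypes. Of all transcript clusters, 1.15% rose and 0.393% fell. The summed linear signal of these markers was 34431 to 36282 on control arrays and 38420 to 40608 on null arrays, without overlap. The brightest markers weigh most in this sum. Sums of other gene sets were not computed as a background, so the separation only describes this list. Of 12 fibroblast markers 1 rose (*Acta2*, 0.61, adjusted p = 0.00292) and 1 fell (*Thy1*, -0.51, adjusted p = 0.00525). *Col1a1* and *Col1a2* had -0.17 and -0.30, and 8 of the 12 lay above 0. The fibroblast sums were 4023 to 5979 on control and 5148 to 6937 on null arrays. The brightest of these markers, *Acta2*, weighs most in the sums, and its mean was 11.88 in batch 1 and 11.10 in batch 2. None of 11 mesoderm and endoderm markers or of 8 germ cell markers passed between genotypes, and their sums overlapped. Between batches, fibroblast marker sums were 5808 to 6937 in batch 1 and 4023 to 5249 in batch 2, those of mesoderm and endoderm markers 1443 to 1754 and 1307 to 1366, and those of germ cell markers 1614 to 1652 and 1473 to 1594. No array signal is a true 0, so an absent marker cannot be told from a dim one. The part of these other cells in the differences of the pluripotency genes was not tested.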

How the data were processed

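Expression was measured on 8 Affymetrix arrays in 4 control and 4 *Sox3* null cultures at Day 4, with 2 of each in either of 2 batches. For each transcript cluster the authors deposited a log2 signal, already normalized and summarised. Partek is the software in the submitters' processing notes. The normalization, summary method and build were not given in the sources used here. Of 35556 rows, 21789 had 1 symbol, 1621 several and 12146 were unnamed here, by the platform annotation.

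A linear model of genotype plus batch was applied to the 23410 named rows (limma 3.58.1, R 4.3.3), with Benjamini-Hochberg adjustment over all rows. The methods name an ANOVA that included batch, and the fold cut-off of 1.4 was taken from the results of the study. The brightest transcript cluster by mean over 8 arrays stood for a symbol. All members were reported, together with at most 4 genes with the smallest genotype p from each further list. Members and lists were chosen with earlier results of these data known. Promoter windows came from RefSeq (GRCm38.p6). Arrays of this design were simulated for the genotype comparison over 23410 transcript clusters. Of those changed on the log2 scale, 82% of 100 changed by 0.5 and 99% of 100 changed by 1 passed. Of those that passed, 5.24% were unchanged. Smaller changes were not simulated, and the member differences ran from -0.37 to 0.17, so recovery at their sizes is not known. Alternatives covered the rows fitted, filters, batch, replicate block, variance, normalization, weights, threshold, single batches and each array left out. The number of arrays limits the precision. qRT-PCR, staining and chromatin data were not analysed here.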

Additional observations from a re-analysis of the deposited data

Results flagged for a closer look

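Of 70 groups of 4 arrays (35 members in each genotype), 2 held an array far from the other 3, where chance alone would give about 1 in 20 groups. *Nanog* on control replicate 4 read 10.47, against 10.70 to 10.74 on the other control arrays, and this array lies nearest to the null arrays. *Zscan10* on *Sox3* null replicate 3 read 9.31, against 9.61 to 9.67 on the other null arrays, and without it the genotype difference was -0.27 in place of -0.31.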

How the results depend on the processing

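The number of members that passed between genotypes was 1 over all 8 arrays. It was 0 when all rows of the table were fitted, without the batch term, with batch as random, in the plain linear model, after subtraction of array medians and in each batch alone, and fits that left out 1 array gave 0 to 2. It was 2 without transcript clusters below the median signal (*Nanog* and *Jarid2*), 2 when the arrays were quantile normalized again (*Nanog* and *Klf5*), 3 with an intensity trend in the variance (*Nanog*, *Sall4* and *Jarid2*) and 4 at an adjusted p of 0.1 (with *Tfcp2l1*). The adjusted p of *Nanog* ran from 0.02 to 0.621 over its 25 alternatives, and its difference was below 0 in all 25. Without *Sox3* null replicate 4, *Zscan10* and *Jarid2* passed and *Nanog* did not (adjusted p = 0.0619). With the replicate number as a block, 0 members passed (*Nanog* adjusted p = 0.0718), and 353 transcript clusters passed in place of 362. The labels pair numbers only by batch, and within batches same-numbered cultures deviated with r = -0.324 in batch 1 and 0.305 in batch 2. The median difference of the members, -0.10, was -0.054 in batch 2 alone and -0.12 to -0.075 with 1 array left out, and it kept its sign under every alternative run. Between batches 15 members passed, 11 to 13 with 1 array left out and 8 in the plain linear model. No alternative that was run gave a member past the threshold for genotype by batch. Members near 0 changed sign. With 1 array left out, the ranges were -0.062 to 0.036 for *Dppa4*, -0.095 to 0.0031 for *Tdgf1*, -0.054 to 0.12 for *Dppa3*, -0.054 to 0.013 for *Tbx3*, -0.11 to 0.0073 for *Dppa2*, -0.013 to 0.077 for *Lin28b*, -0.0038 to 0.059 for *Nr0b1*, -0.016 to 0.038 for *Mycn* and -0.078 to 0.00041 for *Cd9*. Averaging transcript clusters gave 0.026 for *Dppa2*, 0.14 for *Dppa4* and -0.034 for *Dppa3*, and quantile normalization -0.0068 for *Lin28b*. Batch 1 alone gave -0.095 for *Fbxo15*, -0.025 for *Dppa3*, -0.0040 for *Nr0b1* and -0.013 for *Mycn*, and batch 2 alone 0.058 for *Tdgf1*, 0.069 for *Dppa2*, 0.042 for *Dppa4*, -0.060 for *Lin28b* and 0.028 for *Dnmt3l*. The cause of these shifts was not tested. Of 870 member values under alternatives, 819 kept direction and side of the threshold.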
